A study of Mus musculus with 7 samples.

Results

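Rpl13a and the genes of its regulatory complex were followed through 7 single mouse embryos. The 6 genes were taken by symbol from a count table of 26586 gene symbols: Rpl13a itself, Eprs, Syncrip and Gapdh, whose proteins are the other known parts of the GAIT complex, and Dapk1 and Dapk3, the kinases above it. All 6 were in the table. The embryos were of the C57BL/6 background and from an L13a-/+ cross, L13a being the older name of Rpl13a. They were flushed from the oviduct and uterus of L13a(+/-) mothers at 3 days post coitum. The father's genotype is not spelled out in the labels. The labels call them morulae and put all 7 in 1 group with replicate numbers 1 to 7. They give no genotype, sex, litter or wild-type comparison group, nor what was altered in the mutant copy. No embryo was therefore assigned a genotype, and each value below belongs to 1 embryo. The labels do not speak of separate litters, so every p-value below covers the spread among these 7 libraries alone, some of which may be technical.

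GAIT stands for interferon-gamma-activated inhibitor of translation. The pathway is best known from macrophages. There interferon gamma leads DAPK1 to activate DAPK3 (also called ZIPK), which phosphorylates the ribosomal protein L13a and so frees it from the large ribosomal subunit. Free L13a joins the glutamyl-prolyl-tRNA synthetase EPRS, the RNA-binding protein SYNCRIP (NSAP1) and the glycolytic enzyme GAPDH on an element in the tail of certain inflammatory messenger RNAs, and there it blocks the translation factor eIF4G. In mouse macrophages the complex has been described without SYNCRIP. All 4 complex members have other duties: L13a in the ribosome, EPRS in charging tRNA, SYNCRIP in RNA processing and GAPDH in sugar breakdown.

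Libraries differed widely in depth. Totals ran from 139619 counts in replicate 6 to 33123742 in replicate 4, and from 1749 to 12064 genes had a count. Of 8 markers of blastomeres and their first lineages, including Pou5f1 and Cdx2, all had a count in replicate 4. None had a count in replicates 1 and 6, so the label of morula has no marker behind it in those 2 libraries. Replicate 3 had 2 counts of Tfap2c, 1 of Cdh1 and none of the other markers in this set. Of 5 oocyte markers, all 5 were counted in replicates 1, 2 and 7, 3 in replicates 3, 4 and 6, and 2 in replicate 5. Oviduct and uterus markers summed to 1088, 1412, 0, 0, 1.81, 2650 and 142 counts per 1000000 of the library total (CPM) in replicates 1 to 7. Oocyte markers summed to 2932, 1120, 4500, 9.81, 28.2, 1103 and 5412 CPM, highest in replicates 7 and 3 and lowest in replicates 4 and 5. Stroma markers summed to 4348 CPM in replicate 6 and to between 0 and 42.8 CPM elsewhere. Macrophage and blood markers were at 129 CPM in replicate 6, all of it Csf1r, and at most 0.0608 CPM in the others. None of 3 cumulus and granulosa markers was counted. For whole embryos, fewer cells of a type and less RNA per cell cannot be told apart.

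Rpl13a and Syncrip took the same order on the scaled log2 level over the 6 embryos in which both were counted, as described below. For Rpl13a the places of replicates 3 and 5 in that order rest on 4 and 9 counts. The sequence around the annotated start sites of both genes is shown with that of Gapdh, which did not take this order. Each is from RefSeq on GRCm38.p6 and covers 40 bases before the start and 20 from it. Capitals mark the longest run made only of C and T within 20 bases of the start, or the first of them where lengths tie. A run of this kind at the very start of a messenger RNA is the known feature of ribosomal protein genes, but the marked runs need not lie there.
Rpl13a (chr7:45128726-45128785, minus strand): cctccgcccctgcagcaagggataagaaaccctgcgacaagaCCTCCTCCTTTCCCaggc
Syncrip (chr9:88482378-88482437, minus strand): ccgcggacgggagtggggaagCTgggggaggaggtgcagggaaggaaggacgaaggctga
Gapdh (chr6:125165754-125165813, minus strand): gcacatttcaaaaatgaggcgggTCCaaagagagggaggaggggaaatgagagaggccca
The run was 14 bases in Rpl13a, and 2.0% of 32851 annotated starts had one as long. It was 2 bases in Syncrip (99.4% of starts as long) and 3 in Gapdh (93.7%). Among the others it was 10 bases in Dapk1, 4 in Eprs and 5 at the first listed start of Dapk3. The marked run began after the annotated start in Rpl13a and Eprs. In Syncrip, Gapdh, Dapk1 and Dapk3 it lay before the start, outside the annotated messenger RNA. Syncrip and Gapdh each also held an unmarked run of the same length after the start, so the place of their mark carries no meaning. The windows of 300 bases around the starts were also searched on both strands for TTCNNNGAA, the core of the interferon gamma site, which 8.3% of all starts held, and for TATAAA (13.6%). None of the starts of the 6 genes held either string, which says only that these letters are not in these windows. GGGCGG, the core of a GC box (35.7% of starts), was found in Rpl13a, Eprs, Syncrip, Dapk1 and Dapk3 and not in Gapdh.

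Rpl13a, the gene of the cross, was counted in all 7 embryos. In GRCm38 it takes up bases 45125558 to 45128761 of chromosome 7, minus strand, with 19 annotated transcripts. It had 99, 1954, 4, 17558, 9, 1 and 403 counts in replicates 1 to 7. These stand for 86.5, 119, 5.51, 530, 3.26, 7.16 and 23.5. Replicate 4 stood highest, replicates 1 and 2 next, and replicates 3, 5 and 6 rested on fewer than 10 counts each. The highest level was 163-fold the lowest. In replicate 4 the gene stood above 97.5% of the genes with a count, in replicate 5 above 27.4% and in replicate 3 above 20.5%. Of the 21 pairs of embryos, 17 had 95% Poisson intervals of CPM that did not overlap. The number was 17 for Eprs, 19 for Syncrip and for Dapk3, 16 for Gapdh and 3 for Dapk1. It was not taken over all genes, so it marks no trait of Rpl13a. Such intervals cover counting error only, because the libraries carry no molecular identifiers.

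**Figure D1:**
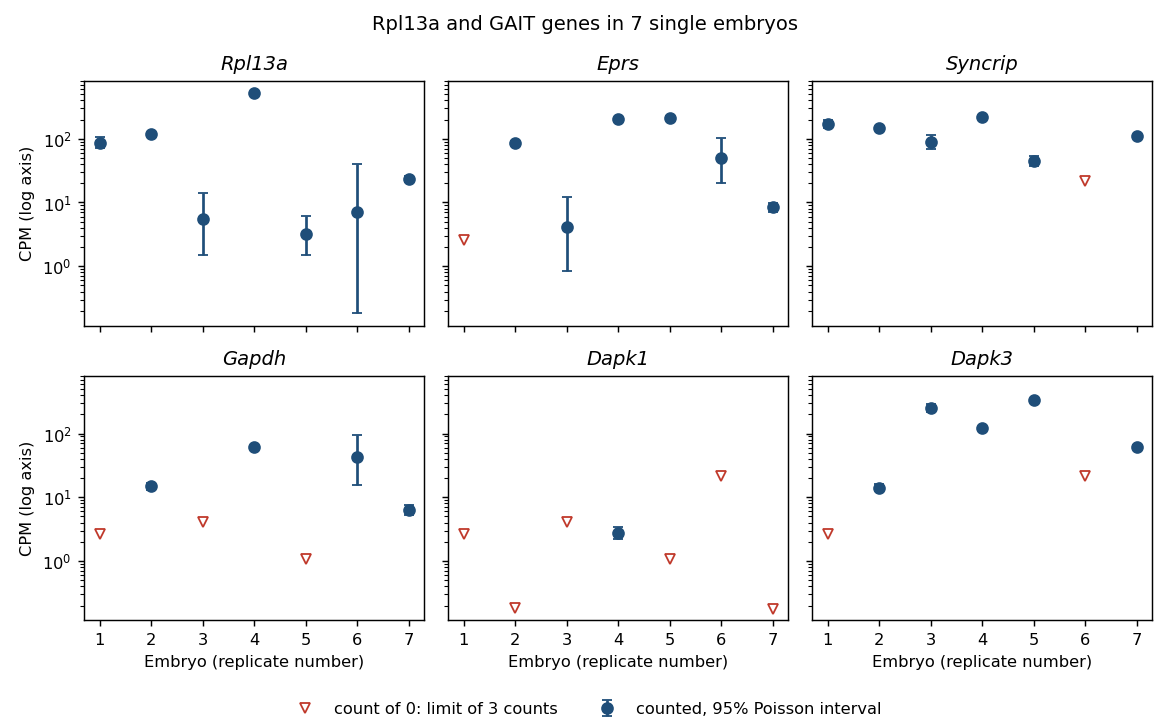
CPM (log axis) of the 6 genes in embryos 1 to 7. Filled points are counted values with their 95% Poisson interval, and open triangles mark the level of 3 counts in libraries where the count was 0. Syncrip lies between 44.5 and 216 CPM in the 6 embryos in which it was counted, whereas Dapk1 has a value in replicate 4 alone.

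Syncrip was the most even of the complex genes in the embryos that contained it. SYNCRIP binds messenger RNA and takes part in its splicing, stability and translation. The gene lies on chromosome 9 from 88447009 to 88482574 on the minus strand. Its counts were 198, 2410, 64, 7139, 123, 0 and 1877 in replicates 1 to 7. As CPM these are 173, 146, 88.2, 216, 44.5, 0 and 110 CPM. The 6 embryos with a count thus differed by 4.84-fold at most. Replicate 6 stood apart, since 3 counts there equal 21.5 CPM, below every other embryo, and replicate 4 was at least 10.0-fold higher than that limit. Replicate 6 is also the shallowest library and the one with the highest CPM of stroma markers (4348) and of oviduct and uterus markers (2650). The 2650 CPM came from Lcn2 and Ltf, with no count of Ovgp1. The part of these markers in the missing Syncrip was not tested. After all libraries were thinned to the total of replicate 6, Syncrip had 31, 25, 16, 34, 9, 0 and 21 counts.

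Eprs, the synthetase that charges tRNA with glutamate and proline, was abundant in some embryos and nearly missing from others. It spans 185363044 to 185428360 on the plus strand of chromosome 1. Its counts were 0, 1426, 3, 6811, 581, 7 and 143 in replicates 1 to 7. As CPM they are 0, 86.7, 4.13, 206, 210, 50.1 and 8.35. Replicates 4 and 5 were the highest and had overlapping intervals of 201 to 211 and 193 to 228 CPM. In replicate 5 the 2 genes parted, with Eprs at 210 CPM and Rpl13a at 3.26. In replicate 1 the reverse held, with Rpl13a at 86.5 CPM and no Eprs count, where 3 counts equal 2.62 CPM. Replicate 5 was at least 80.1-fold above that limit.

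Gapdh, a glycolytic enzyme that is often used as a reference transcript, was low and was missing from 3 of the 7 libraries. It lies on chromosome 6 from 125161715 to 125166467 on the minus strand. Counts were 0, 245, 0, 2003, 0, 6 and 109 in replicates 1 to 7, or 0, 14.9, 0, 60.5, 0, 43.0 and 6.37 CPM. For the 3 libraries at 0 the limit of 3 counts is 2.62 CPM in replicate 1, 4.13 in replicate 3 and 1.09 in replicate 5. All 3 limits lie below the lowest counted level. The value of replicate 6 rests on 6 counts, with an interval of 15.8 to 93.5 CPM.

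Gapdh has many near-identical copies in the genome, so its level is uncertain. A search of GENCODE transcripts found 154 other genes with a transcript matching at least 90% of bases over at least 0.5 of its longest coding transcript, and 145 of those transcripts were annotated as pseudogenes. Rpl13a had 5 such matches, and the other members none. Of the Gapdh matches, 7 pseudogenes were in the count table. They held 0, 8, 0, 14, 0, 0 and 1123 counts in replicates 1 to 7. The large value comes from 1 entry, Gm5177 on chromosome 10 from 10605945 to 10616313, with 1121 counts in replicate 7, 1 in replicate 2 and none elsewhere. In replicate 7 the pseudogenes thus held 91.2% of the 1232 counts under Gapdh and its pseudogenes. With them added, replicate 7 moved from 6.37 to 72.0 CPM and from the lowest to the highest of the 4 embryos with Gapdh counts. Gm5177 is annotated as a transcribed pseudogene over a longer span than any Gapdh transcript, and which part of it the reads came from cannot be seen in a count table. The 2 Rpl13a pseudogenes in the table, Gm11478 and Gm6023, held at most 64 counts together (replicate 4). In replicate 5 they held 3 counts beside the 9 of Rpl13a.

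**Figure D2:**
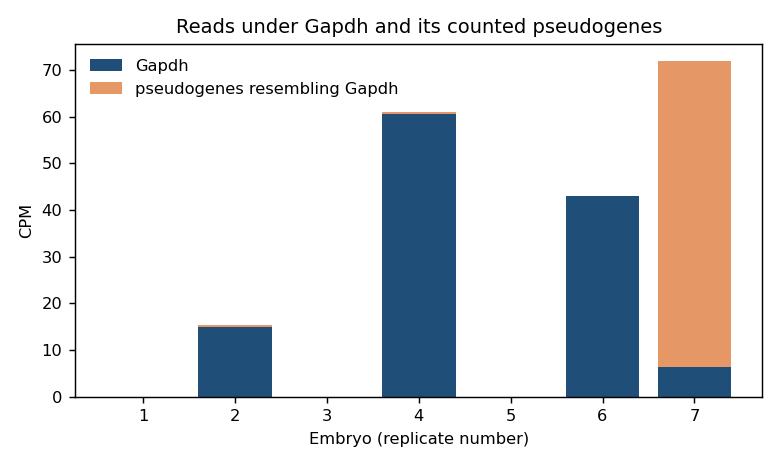
Bars give CPM under Gapdh (blue) and, stacked on it, under the 7 pseudogenes in the table that resemble it (orange), in embryos 1 to 7. In replicate 7 the pseudogenes make up 65.6 of 72.0 CPM; in replicates 2 and 4 they are under 0.5 CPM each.

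The 2 kinases differed strongly from each other. Dapk3, the kinase that phosphorylates L13a, lies on chromosome 10 from 81183005 to 81193197 on the plus strand. It had 0, 232, 185, 4107, 917, 0 and 1053 counts in replicates 1 to 7. These equal 0, 14.1, 255, 124, 332, 0 and 61.5 CPM. Its highest embryos, replicates 5 and 3, were among the lowest for Rpl13a, whereas replicate 1, the third highest for Rpl13a, had no Dapk3 count. Replicate 5 was at least 126-fold above the 3-count limit of replicate 1. In replicate 6 the limit, 21.5 CPM, lies above the 14.1 CPM of replicate 2, so at that depth a low level was not detectable.

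Dapk1, the calmodulin-dependent death-associated kinase above DAPK3, was scarcely detected. It spans 60601947 to 60763191 on the plus strand of chromosome 13. It had 92 counts (2.78 CPM) in replicate 4 and 0 in the other 6 embryos. In replicates 2 and 7, the next deepest libraries, 3 counts equal 0.182 and 0.175 CPM, so replicate 4 was at least 15.2-fold and 15.9-fold higher than those limits. In replicates 3 and 6 the limits of 4.13 and 21.5 CPM lie above the level of replicate 4. Within replicate 4, Dapk1 held 2.19% of the 4199 counts of both kinases (95% Clopper-Pearson interval 1.77 to 2.68%). Dapk1 had a mean below 1 CPM and was left out of the tests below, so 5 of the 6 genes were tested.

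Levels of different genes were compared per kilobase of annotated exon (RPKM, CPM divided by exon length), on a log2 scale. Here and in the tests below, log2 levels carry a prior count of 2 and TMM scaling, which sets libraries to a common level by the bulk of their genes. Rpl13a had the highest mean, 3.81 ± 2.92 (SD, n = 7), then Dapk3 with 2.91 ± 4.55 and Syncrip with 2.06 ± 3.52. Eprs followed with 0.21 ± 3.71, Gapdh with -0.36 ± 3.67 and Dapk1 with -4.66 ± 1.54 log2 RPKM. Within embryos, Rpl13a exceeded Dapk3 by 0.90 ± 5.41, Dapk3 exceeded Syncrip by 0.85 ± 4.05, Syncrip exceeded Eprs by 1.85 ± 5.24 and Eprs exceeded Gapdh by 0.57 ± 3.54 log2 units (mean ± SD, n = 7). None of these 4 differences between neighbours was larger than its spread. Gapdh exceeded Dapk1 by 4.30 ± 3.08, more than 1 SD. It was higher in the 4 embryos in which it was counted, and both were at 0 in the other 3. By median RPKM the first places changed, with Dapk3 at 24.3 and Rpl13a at 11.1. With the longest transcript as the length, the order of the means stayed the same. Syncrip then had a mean of 2.44, Eprs of 1.89 and Gapdh of -0.027 log2 RPKM. The gaps between genes, and the shares below, thus depend on the length used.

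The leading gene of the 6 differed between embryos. Per kilobase, Rpl13a made up 74.4, 68.5 and 73.0% of their summed level in replicates 1, 2 and 4. Dapk3 made up 91.0, 88.7 and 52.4% in replicates 3, 5 and 7. Gapdh led in replicate 6 with 62.8%, on 6 counts.

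**Figure D3:**
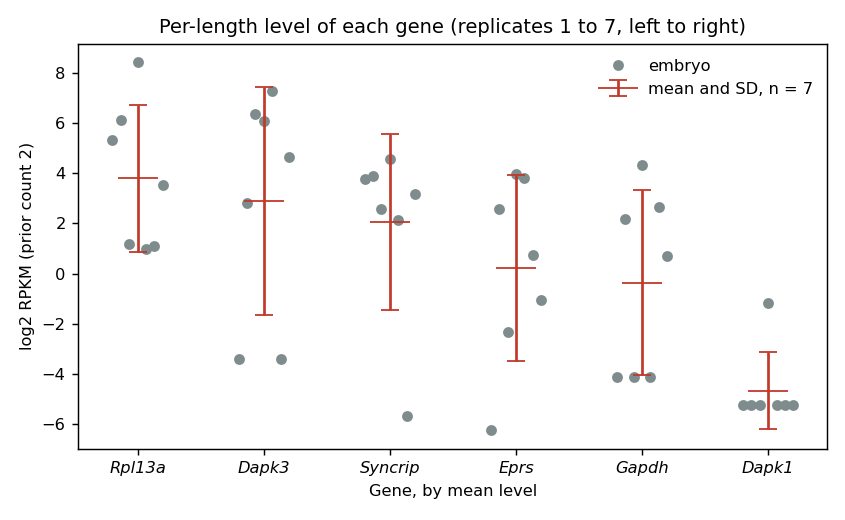
Grey points are log2 RPKM (prior count of 2) of each gene in replicates 1 to 7, left to right; red bars give the mean and SD (n = 7). The SD bars of neighbouring genes overlap from Rpl13a to Gapdh, and the lowest points of Dapk3, Syncrip, Eprs, Gapdh and Dapk1 are embryos with a count of 0.

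The first test asked whether a gene varied between embryos more than genes of like abundance, with the edgeR quasi-likelihood dispersion over all 11810 genes with a mean of 1 CPM or more. None of the 5 members passed (edgeR, adjusted p from 0.869 for Gapdh and Dapk3 to 0.960 for Syncrip). The background was 0% of all genes called, with 68 genes at an unadjusted p under 0.05, none of them a member. The common dispersion was 9.02, and the lowest adjusted p of any gene was 0.869 (edgeR). Against so wide a spread the test does not show that the members were steady. DESeq2 gave 0 dispersion outliers, and limma on the authors' log2 table called 0. The SD of log2 CPM was 2.92 for Rpl13a, 3.71 for Eprs, 3.52 for Syncrip, 3.67 for Gapdh and 4.55 for Dapk3, beside a median of 3.63 over all tested genes. Dapk3 thus had a larger SD than 84.6% of tested genes and Rpl13a than 26.0%. The SD of Syncrip rests on replicate 6: without that embryo it was 0.91, larger than that of 0.957% of tested genes, whose median was then 3.59. In replicate 6 its count of 0 stood at -2.07 log2 CPM, the value given to a 0 at any depth. The SD of 3.52 therefore depends on that floor.

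**Figure D4:**
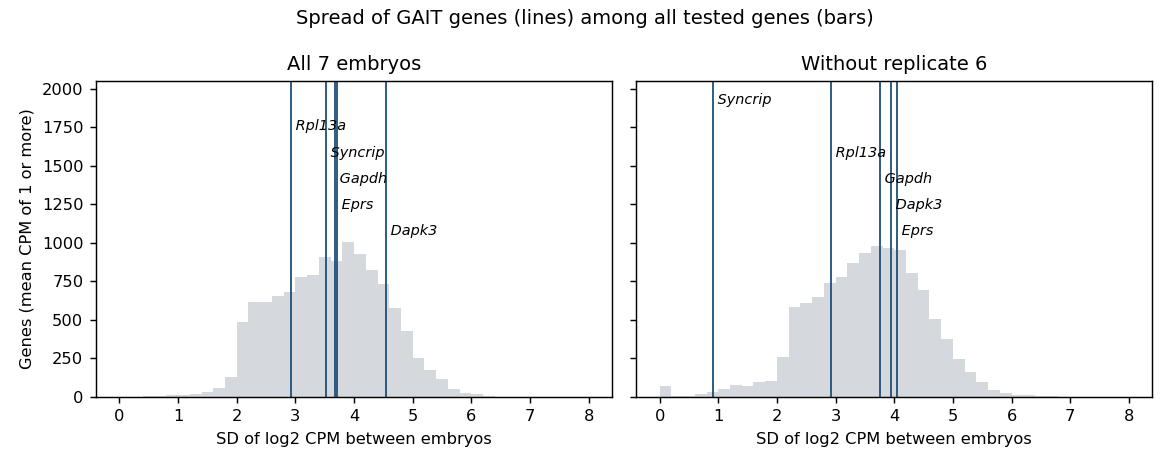
Histograms of the SD of log2 CPM between embryos over 11810 tested genes, with all 7 embryos (left) and without replicate 6 (right); lines mark the 5 tested GAIT genes. Syncrip moves from 3.52, near the median, to 0.91, at the low end.

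The second test asked whether the other genes followed the level of Rpl13a, the question that the biology of a shared complex raises. With edgeR's quasi-likelihood test, the slope of log2 level on log2 CPM of Rpl13a was 0.13 ± 0.41 for Eprs, 0.40 ± 0.53 for Syncrip, 0.38 ± 0.49 for Gapdh and -0.14 ± 0.43 for Dapk3 (estimate ± SE, n = 7, adjusted p from 0.732 to 0.894). The median slope of all genes was 0.73, and the 4 slopes lay below it with all 7 embryos. That of Gapdh was 1.26 without replicate 6 and 0.059 without replicate 4. None of the 4 passed, and the background was 0% of 11809 genes, with 2366 at an unadjusted p under 0.05 and no member among them. DESeq2 called 319 genes, 2.7% of those tested, and none of the 4 (adjusted p from 0.648 to 0.994). Without replicate 7, edgeR called 1721 genes, 1614 of them with a positive slope, again without a member (adjusted p from 0.555 to 0.877).

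Syncrip was the gene of the 4 whose order over the embryos was most like that of Rpl13a. From lowest to highest Rpl13a log2 CPM the embryos were replicates 5, 6, 3, 7, 1, 2 and 4, and Syncrip had the same order except in replicate 6, where it was at 0. On CPM by library total alone, Syncrip was higher in replicate 1 (173 CPM) than in replicate 2 (146 CPM), so the match at those 2 embryos rests on TMM scaling. Pearson's r was 0.610 (exact permutation p 0.113, adjusted over all genes 0.342) and Spearman's rho 0.964 (exact permutation p 0.00278, adjusted 0.358). Only 10 of 11809 genes had a rho as high, while the median rho was 0.414. Without replicate 6 the r of Syncrip was 0.989 over 6 embryos (exact permutation p 0.00139, the smallest that 6 embryos allow, adjusted 0.452) and rho was 1. Without replicates 2 and 4, the 2 embryos farthest from the median Rpl13a level, r was 0.522. In the authors' log2 table r was 0.022. The relation therefore does not pass adjustment over all genes and depends on the scale. Over 6 embryos a gene at the smallest possible p passes only if many others share it, so that adjusted value cannot decide on the relation. Syncrip spanned a smaller range than Rpl13a, 4.84-fold against 163-fold between the lowest and highest embryos counted.

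For the other members no relation with Rpl13a passed the test. Gapdh had r 0.526 (exact permutation p 0.205, adjusted 0.429) and rho 0.482 (exact permutation p 0.288, adjusted 0.601), beside a median r of 0.526 over all genes. Without replicate 6 the r of Gapdh was 0.788 (exact permutation p 0.075, adjusted 0.452). Eprs had r 0.128 (exact permutation p 0.781, adjusted 0.889) and rho 0.143 (exact permutation p 0.783, adjusted 0.999). Dapk3 had r -0.002 (exact permutation p 0.998, adjusted 1) and rho -0.270 (exact permutation p 0.551, adjusted 0.898). Its r lay below that of 88.5% of tested genes. Without replicates 2 and 4, r was -0.144 for Gapdh, -0.794 for Eprs and -0.456 for Dapk3, so the positive values of Gapdh and Eprs rest on those 2 embryos. With r, 0% of the 11809 genes were called at an adjusted p under 0.05, 1809 had an unadjusted exact permutation p under 0.05, and none of the 4 members did. With rho 0 genes were called and 1444 had an unadjusted p under 0.05, Syncrip among them. Eprs and Gapdh had r 0.539 with each other (exact permutation p 0.195, adjusted 0.730; rho 0.593, exact permutation p 0.179, adjusted 0.740), and Eprs and Dapk3 r 0.533 (exact permutation p 0.221, adjusted 0.730; rho 0.414, exact permutation p 0.356, adjusted 0.910). Without the 2 embryos farthest from the median of Eprs these were 0.080 and -0.010. Eprs and Syncrip had r -0.050 (exact permutation p 0.929, adjusted 0.977) and rho 0.214 (exact permutation p 0.662, adjusted 0.928). No r is given for pairs anchored on Syncrip, Gapdh or Dapk3, whose values fall into separate clusters set by the libraries at 0.

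**Figure D5:**
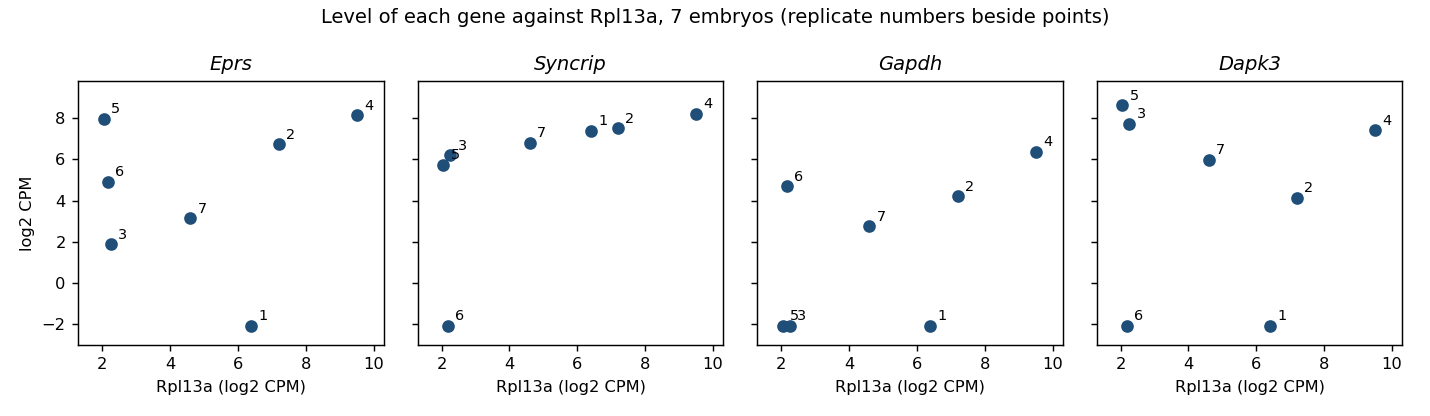
Each panel plots log2 CPM (prior count of 2) of 1 gene against that of Rpl13a, 1 point per embryo with its replicate number. The points of Syncrip lie along a rising line except replicate 6, and Dapk3 has both its highest embryo (replicate 5) and an embryo with no count (replicate 6) at low Rpl13a.

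The relation of each level with depth did not pass the test for any of the 5 genes. Over the 7 embryos, log2 CPM of Rpl13a had r 0.722 with the log2 library total (exact permutation p 0.0677, adjusted over all genes 0.335) and rho 0.643 (exact permutation p 0.139, adjusted 0.437). Syncrip had r 0.770 (exact permutation p 0.0137, adjusted 0.282) and rho 0.750 (exact permutation p 0.0663, adjusted 0.333). The r with depth was 0.560 for Dapk3, 0.421 for Eprs and 0.396 for Gapdh (adjusted exact permutation p from 0.431 to 0.520), with rho of 0.288, 0.536 and 0.371 (adjusted exact permutation p from 0.516 to 0.750). The median r of all genes with depth was 0.525, above Eprs and Gapdh and below the other 3. Without replicates 4 and 6, the farthest from the median depth, r was 0.458 for Rpl13a, 0.370 for Syncrip, 0.121 for Dapk3, 0.515 for Eprs and 0.930 for Gapdh. In counts thinned to the lowest total, the r of Syncrip with Rpl13a was 0.728 (exact permutation, adjusted p 0.379). The part of depth in the shared order was not tested further. Without replicates 1 and 6, the embryos with no blastomere marker, the dispersion, slope and r tests again called 0 genes, with 47, 1776 and 507 at an unadjusted p under 0.05 (edgeR and exact permutation). Over those 5 embryos r with Rpl13a was 0.984 for Syncrip, 0.966 for Gapdh, 0.507 for Eprs and -0.453 for Dapk3 (adjusted exact permutation p from 0.465 to 0.710). Syncrip and Gapdh, each at an unadjusted exact permutation p of 0.0167, were among the 507 genes. With 5 embryos the r test could call a gene only if many genes shared the smallest exact p. The SD of Dapk3 over the same embryos was 1.86 log2 CPM in place of 4.55.

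The genes most like Rpl13a by r were LOC100503676 (r 0.997), Renbp, an enzyme of sialic acid metabolism (0.993), Cldn7, a tight junction claudin (0.993), Hspd1, the mitochondrial chaperonin (0.982), and Tmem11, a mitochondrial inner membrane protein (0.980), over 7 embryos, each with an adjusted exact permutation p of 0.249. Renbp had 28, 2813, 0, 31849, 0, 0 and 46 counts in replicates 1 to 7. Like the other 4, it had no count in replicates 3, 5 and 6, where Rpl13a was lowest. Highest for Eprs were Sat1 (0.980), a polyamine acetyltransferase, and Pelp1 (0.979). For Syncrip, Gapdh and Dapk3 the ranking by r mainly picks genes at 0 in the same libraries, so names and counts are given without r. First for Syncrip were the replication-linked ATPase Atad2, with 64, 911, 22, 1261, 32, 0 and 581 counts in replicates 1 to 7, and the histone chaperone Nasp, also at 0 in replicate 6 alone. First for Gapdh were Abhd5, a cofactor of lipid breakdown, with 0, 412, 0, 1742, 0, 5 and 52 counts, and the cytoplasmic actin Actg1, at 0 in the same 3 libraries. First for Dapk3 were Gemin7, of the snRNP assembly complex, with 0, 983, 618, 3918, 2759, 0 and 1570 counts, and the cytokinesis protein Anln, at 0 in the same 2.

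The wider pathway was described through 7 lists with 42 genes. No gene of these lists with a mean of 1 CPM or more passed the dispersion test, the slope test or the r test after adjustment over all genes, beside the 0% of all genes given above for edgeR and for exact permutation. Of 10 genes of interferon signalling and of the kinases that act on EPRS and DAPK, 9 had a count in some embryo. Ifng, the inducing cytokine, had none in any library. Jak2, a kinase of the interferon gamma receptor, was abundant, with 1126, 8344, 3, 449, 0, 1 and 11228 counts (984, 507, 4.13, 13.6, 0, 7.16 and 656 CPM) in replicates 1 to 7. Its partner Jak1 had 31, 1286, 200, 1016, 0, 0 and 4023 counts. The receptor chain Ifngr1 was counted in replicate 2 alone (369 counts), and Ifngr2 had 191, 273 and 1 counts in replicates 2, 4 and 7. Of the kinases that phosphorylate EPRS, Rps6kb1 (S6 kinase) had 101, 2654, 17, 478, 0, 0 and 670 counts and Cdk5 had 356 counts in replicate 4 alone. Cdk5r1, the activating partner of Cdk5, was counted in replicates 2, 3, 5 and 7 and not in replicate 4. No library therefore had counts of both. The median r with Rpl13a of the 8 genes measured in this list was 0.622, beside 0.526 over all tested genes.

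Cap-binding factors, on which the complex acts, were the most evenly present list. Eif4a1, the helicase, and Eif4e, the cap-binding protein, had counts in all 7 embryos. Eif4a1 had 162, 197, 57.9, 945, 126, 78.8 and 127 CPM in replicates 1 to 7, an SD of 1.61 log2 CPM, below the median of 3.63. Eif4e had 528, 586, 107, 229, 852, 7.16 and 112 CPM. Eif4g1, the factor that L13a blocks, was counted in 6 embryos, from 55.7 to 444 CPM, and not in replicate 6. The 3 genes had r from 0.443 to 0.880 with Rpl13a (adjusted exact permutation p from 0.249 to 0.556).

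Of 7 messenger RNAs reported as targets of the complex, Dapk1 and Dapk3 aside, 3 had a count in some embryo, beside 14964 of all 26586 symbols. Those kinase genes, also reported as targets, are members here and were counted as given above. Ccl22, Ccr3, Ccr4 and Ccr6, chemokine and chemokine receptor genes, had no count in any embryo. In replicate 4, a count of 0 allows up to 0.0906 CPM. Cp, which encodes ceruloplasmin, the first known target, had 877 counts (53.3 CPM) in replicate 2, 2 in replicate 7 and 0 elsewhere. Cxcl13, a B cell chemokine, had 236 counts (14.3 CPM) in replicate 2 and 1 in replicate 7. Vegfa had 2 counts in replicate 1 and 1 in replicate 7. Replicate 2 also had 1412 CPM of oviduct and uterus markers (Lcn2 13743 counts, Ltf 7645, Ovgp1 1841), and their part in its Cp and Cxcl13 counts was not tested.

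Of 10 other members of the multisynthetase complex, which houses EPRS, 1, 8, 3, 10, 6, 1 and 5 were counted in replicates 1 to 7. Of all 26586 symbols, 5121, 9383, 3486, 12064, 3388, 1749 and 8953 had a count in the same libraries. Iars, of isoleucine, had 141, 2712, 0, 2999, 0, 11 and 8584 counts, and Rars, of arginine, 0, 3099, 3, 6730, 1526, 0 and 61 in replicates 1 to 7. The scaffold gene Aimp1 had 2370 counts in replicate 4 and 0 elsewhere. Among 3 proteins of the VEGFA RNA switch, Hnrnpa2b1 had 81, 3431, 0, 30821, 2369, 0 and 2363 counts, and Hnrnpl, which competes with the complex, 0, 1845, 136, 5121, 68, 0 and 9. Of 4 paralogs of the members, Gapdhs, the sperm form, had no count, and Dapk2 had 59 counts in replicate 4 alone, the only embryo with Dapk1. Hnrnpr, the paralog of Syncrip, was counted in replicates 2, 4 and 7 with 282, 1568 and 223 counts, and Stk17b, a relative of the DAPK kinases, in the same embryos with 546, 275 and 165.

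Small RNA genes in the introns of Rpl13a had few counts. Snord34 had 59 counts in replicate 4 and 15 in replicate 5, and Snord32a had 51, 26 and 3 in replicates 2, 4 and 5. In replicate 5 Rpl13a itself had 9 counts, fewer than the 15 of Snord34. Snord33 and Snord35a reached 47 and 48 counts in replicate 4, and Mir5121 had none. Gapdh overlaps Iffo1 on the opposite strand, and whether counting used strand is not stated in these sources, so reads of the 2 genes might not be told apart. Iffo1 was highest in replicate 7, with 1874 counts. Rpl13a overlaps Gm45713 and Syncrip overlaps Gm20537 on the same strand, and Dapk3 overlaps 4930442H23Rik on the opposite one. None of those 3 entries is in the count table used here.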

How the data were processed

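Messenger RNA of 7 single embryos was read from both deposited tables. Per the labels' protocols, total RNA was brought to a like amount in each sample before oligo-dT capture, SMART-Seq v4 gave the cDNA and Nextera XT the libraries. HISAT2 2.0.5, featureCounts 1.5.0-p2, limma and build GRCm38 are named in the submitters' processing notes, without order, settings, annotation or strand. The deposited count table holds raw whole-number counts. Taking log2 CPM of those counts with an offset of 0.5 and quantile normalizing them, ties averaged, gave the authors' log2 table to within 4.97e-14.

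Members and lists were chosen with earlier results of these data known. Named genes were the 6 members, the 2 genes of highest mean CPM in each list with any others of the lists by count, and the genes most like each member by r. Others named from the lists were chosen after their values were seen. Log2 CPM used TMM factors and a prior count of 2 in edgeR 4.0.16 (R 4.3.3), and single CPM (counts per 1000000) the library total alone. Tests took genes with a mean of 1 CPM or more. edgeR quasi-likelihood tests, limma 3.58.1, DESeq2 1.42.0 and two-sided exact permutation tests of r and rho were adjusted by Benjamini-Hochberg over all genes tested, at 0.05. For 7 embryos the smallest exact p is 0.000198. No r was given where 1 gap exceeded 0.5 of the range of the anchoring gene. The edgeR and exact permutation tests were also run on simulated data, with outcomes not given here. Positions, exon lengths and copies (blastn 2.17.0) came from GENCODE M21, and start sequences from RefSeq. Sums of CPM over markers use the table's symbols, and Adgre1 and Hbb-bs were not matched. The values of 1 listed gene are not reported here.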

Additional observations from a re-analysis of the deposited data

Results flagged for a closer look

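Among 54 genes named in the text, 17 had 1 embryo so far from the rest that its gap to the nearest other embryo, as a share of the whole range of log2 CPM, passed Dixon's 95% critical value for 7 values. Chance flags about 1 in 20 such groups, and a gene counted in 1 library alone has a share of 1.0 whatever its level. That was so for Dapk1, Dapk2, Cdk5, Aimp1, Snord33 and Cdx2 in replicate 4, Ifngr1 in replicate 2 and Csf1r in replicate 6. Syncrip was far lowest in replicate 6, with a share of 0.761, as were Eif4g1 (0.719), Atad2 (0.721) and Nasp (0.708). Atad2 and Nasp were named for being like Syncrip, so these are not separate signals. Replicate 6 had 139619 counts in all and 0 for each of these 4 genes. A count of 0 stood at -2.07 log2 CPM in every library, though 3 counts in replicate 6 equal 21.5 CPM. These 4 shares therefore depend on that floor and do not show how far below the rest replicate 6 was. Cp (0.928) and Cxcl13 (0.948) were far highest in replicate 2, with 877 and 236 counts. Gm5177 (0.951) and Iffo1 (0.955) were far highest in replicate 7, with 1121 and 1874 counts. Vegfa was highest in replicate 1 (0.893), on 2 counts.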

How the results depend on the processing

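No paired analysis was possible because the 7 embryos form 1 group. The dispersion test and the r test called 0 genes in every alternative run: other scaling, other filters, another prior count where it applies, thinned counts, the authors' log2 table, rho for r, DESeq2 or each gene's own prior for dispersion, each embryo left out, and both replicates 1 and 6 left out, an alternative chosen after seeing the data. For the r test with embryos left out, the 0 was nearly set beforehand. With 6 embryos the smallest exact permutation p is 0.00139, and with fewer it is larger. Over 11866 genes (without replicate 6), a gene could pass only if many others shared that smallest p. Those runs therefore say little on whether the r result is stable. The slope test called from 0 to 1721 genes with 1 embryo left out, 1721 without replicate 7 and 3 without replicate 5, and 319 with DESeq2. The cause was not tested. No member was called under any alternative. The slope of Eprs on Rpl13a turned to -0.0080 with DESeq2 and ran from -0.16 to 0.54 with 1 embryo left out, that of Dapk3 from -0.86 to 0.010, that of Gapdh from 0.059 to 1.26 and that of Syncrip from 0.31 to 0.47. The r of Eprs ran from -0.273 to 0.529 and that of Dapk3 from -0.346 to 0.252 with 1 embryo left out. For Dapk3 r was 0.0050 with genes of 10 CPM or more and 0.022 with a prior count of 0.5, so these values have no stable sign. Thinning brought the SD of Eprs to 1.90, Syncrip 1.54, Gapdh 0.958 and Dapk3 1.97 log2 CPM. After thinning a count of 0 stood at 3.82 log2 CPM in place of -2.07, which by itself narrows these ranges. With no filter Dapk1 entered the slope test at 1.34 ± 0.50 (SE), edgeR adjusted p 0.0649, on 92 counts of 1 embryo. Depth limits replicate 6 most: 3 counts equal 21.5 CPM there and 0.0906 CPM in replicate 4.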

Other observations

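The authors' log2 table orders the embryos differently for Rpl13a than CPM does. Its values were 5.47, 5.22, 4.15, 9.29, 4.59, 6.11 and 1.92 in replicates 1 to 7. Replicate 6, with 1 count, stood second at 6.11, and replicate 7, with 403 counts, stood last at 1.92. For Eprs, 7 counts in replicate 6 stood at 7.41 and 6811 counts in replicate 4 at 7.35. For Gapdh, 6 counts in replicate 6 stood at 7.31 and 2003 counts in replicate 4 at 3.41. A count of 0 stood at -2.65 in every library.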
